A study of Homo sapiens with 3 samples.

Results

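The interleukin-1 (IL-1) family was examined here through 10 genes chosen by name among the 29689 genes of an RNAseq table: the ligand genes IL1A, IL1B, IL36G, IL36B, IL18 and IL33, the antagonist genes IL1RN and IL36RN, and the receptor genes IL1R1 and IL1R2. The RNA came from 3 tumors of SUM-149, a human triple-negative breast cancer (TNBC) cell line, which had been mixed with Matrigel and grown in the mammary fat pads of female Nu/Nu mice. One tumor library was from a vehicle control, one from treatment with dinaciclib, an inhibitor of CDK2 and other cyclin-dependent kinases (CDK2i), and one from treatment with EPZ6438, an inhibitor of the histone methyltransferase EZH2 (EZH2i). Both treatments lasted 10 days per the labels. The study names GSK343 as the EZH2 inhibitor for its tumor growth experiment in SUM-149 xenografts, so the drug of the EZH2i library rests on its label. All 3 libraries come from a single cell line, nude mice lack mature T cells but keep myeloid cells, and each group holds 1 library. There was therefore no replicate error, no p-value was computed, and a treatment cannot be told apart from a difference between single tumors.

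IL-1 family ligands are alarm cytokines that epithelial cells make and release on damage. IL-1α and IL-1β bind the receptor encoded by IL1R1, which then recruits the accessory chain encoded by IL1RAP and signals through MYD88 and IRAK kinases to NF-κB. IL1RN encodes the receptor antagonist, which occupies IL1R1 without signaling, and IL1R2 encodes a decoy receptor that binds ligand without a signaling domain. The IL-36 ligands, of which IL36G encodes IL-36γ, use the receptor encoded by IL1RL2 and are opposed by the antagonist that IL36RN encodes. IL-18 and IL-33 use separate receptors, and IL-18 and IL-1β are made as precursors that caspase-1 can cleave.

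The values are FPKM (fragments scaled to gene length and library depth), which the authors deposited on a log2 scale. The libraries held about 16800000, 19100000 and 17500000 fragments for vehicle, CDK2i and EZH2i, as read from the step that 1 fragment makes among the lowest values. A 95% counting interval beside a value covers counting error only and rests on fragment numbers computed with 1 transcript length per gene from the GENCODE 44 annotation. With the union of all exons the numbers would be equal or larger and the intervals narrower. The tumor cell identity matched the label in its keratins, with KRT5 at 1873, 4217 and 1653 FPKM and KRT14 at 2458, 6269 and 2541 FPKM in the vehicle, CDK2i and EZH2i tumors. ESR1 stayed between 0.792 and 1.10 FPKM, and PGR was at or near 0, while ERBB2 was at 30.4, 30.2 and 21.9 FPKM. Ribosomal protein genes held 15.4%, 8.68% and 8.33% of the summed FPKM. Of 11 leukocyte marker genes 10 were in the table, with a summed level of 12.4, 12.2 and 6.24 FPKM. The pan-leukocyte gene PTPRC was at 0.0224, 0.0196 and 0 FPKM, and CD14 and ITGAM held most of the sum. Reads of the mouse host can also map to human symbols, and the part of host cells in the values below was not tested. In bulk tumors fewer cells of a type and less RNA per cell cannot be told apart.

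All 10 genes had a value, and 9 of them had a mean above log2 FPKM 1 and no value listed at 0. In the vehicle tumor IL18 was the highest at 51.6 FPKM, followed by IL1RN at 17.1, IL33 at 10.8, IL36G at 7.23, IL1B at 5.48, IL1R1 at 4.51, IL1R2 at 3.96, IL1A at 2.24, IL36RN at 1.5 and IL36B at 0.301. In this order the counting intervals of IL36G and IL1B, IL1B and IL1R1, IL1R1 and IL1R2, and IL1A and IL36RN overlapped. IL18 alone held 49.2% of the summed FPKM of the 10 genes with vehicle, against 17.3% under CDK2i and 23.0% under EZH2i. In the CDK2i tumor IL1RN led, followed by IL18, IL36G and IL1R2, of which the last 3 overlapped between neighbors. In the EZH2i tumor IL36G and IL18 led with overlapping intervals, followed by IL1B, IL1RN and IL1A.

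**Figure D1:**
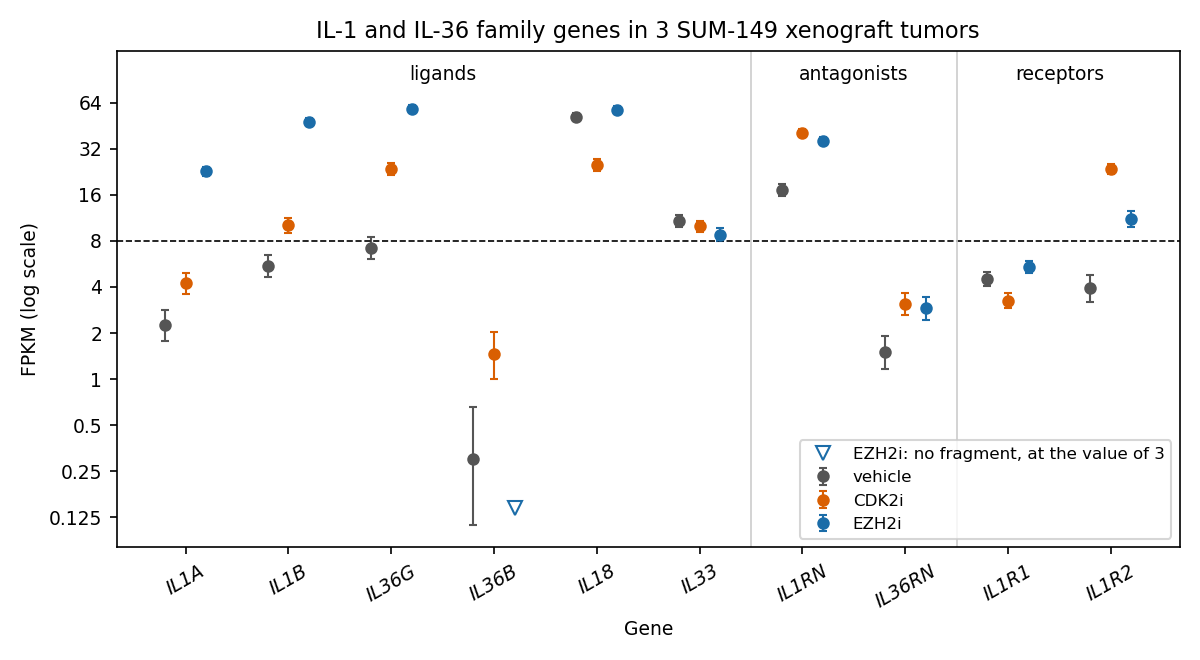
FPKM (log scale) of the 10 genes in the vehicle, CDK2i and EZH2i tumors, 1 library each, with bars for the 95% counting interval and a dashed line at the expression minimum of 8 FPKM. IL1A, IL1B and IL36G stand lowest in vehicle and highest in EZH2i, IL1R2 was highest in CDK2i, and IL36B had no fragment in EZH2i (open triangle, drawn at the level of 3 fragments).

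The fold and expression thresholds stated in the study were applied: a fold change over 2 between the tumors compared, with at least one of them over log2 FPKM 3 (8 FPKM, the expression minimum). In the CDK2i tumor 3 of the 6 genes above the expression minimum were higher than in the vehicle tumor by this rule, IL1RN, IL36G and IL1R2, and 1 was lower, IL18. Over all 6632 genes above the minimum, 3.27% were higher and 8.07% lower. In the EZH2i tumor 5 of 7 were higher, IL1A, IL1B, IL1RN, IL36G and IL1R2, and 0 were lower. Of all 7414 genes above the minimum there, 8.93% were higher and 4.42% lower. A gene above the minimum in only 1 of the tumors compared can be called only in the direction of that tumor. With vehicle, IL1A, IL1B, IL36G and IL1R2 were below it, at 2.24, 5.48, 7.23 and 3.96 FPKM. They could therefore not be called lower in EZH2i, nor could IL1B, IL36G and IL1R2 in CDK2i. The shares of all genes rest on the same rule. The members were chosen with earlier results of these data known. Their counts, here and below, therefore describe the members and are no independent test. The 9 expressed members had a median log2 change of 0.92 for CDK2i and 1.06 for EZH2i, against −0.11 and 0.19 for the 11109 expressed genes. After centring, with equal summed FPKM or with the GC and length trend removed, IL1B also passed in CDK2i. IL1A then passed the fold threshold but not the expression minimum. The CDK2i tumor also had more RNA of the keratin genes KRT5, KRT14 and KRT17, with log2 changes of 1.17, 1.35 and 1.29. The other epithelial markers, EPCAM, KRT8, CDH1 and KRT18, were at 0.16, 0.24, 0.46 and 0.51, below the fold threshold. The summed FPKM of these 7 genes was 5248 with vehicle, 12366 with CDK2i and 4908 with EZH2i. Their part in the counts was not tested. Both comparisons use the same vehicle library.

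**Figure D2:**
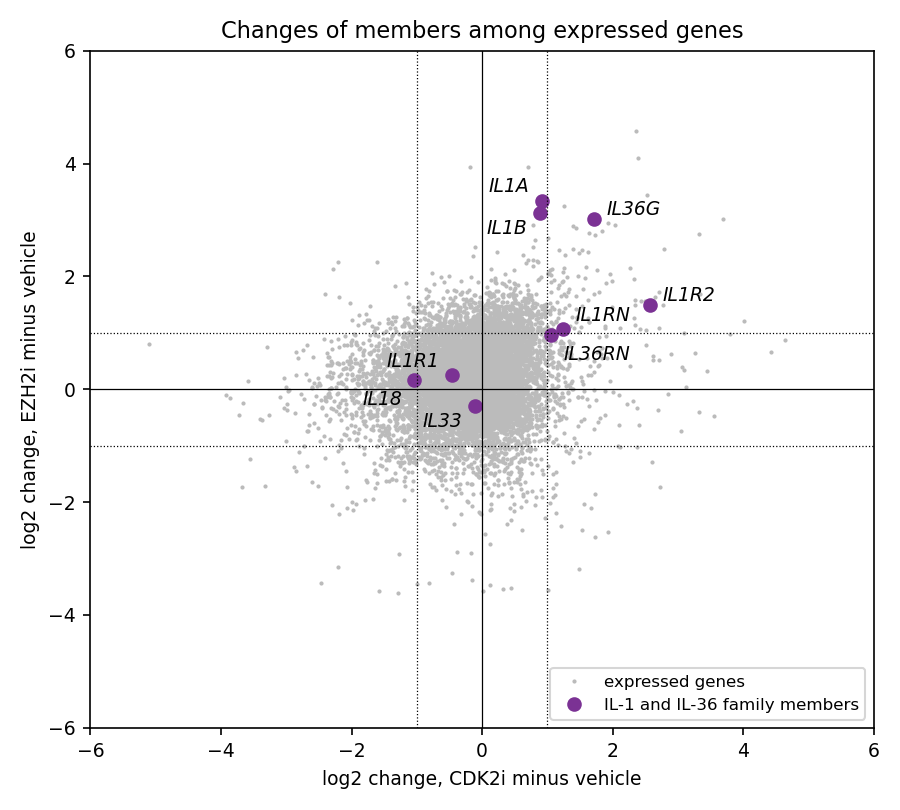
Log2 change from vehicle, CDK2i on the x axis and EZH2i on the y axis, for the 9 members with a value in every library, over the 11109 expressed genes in gray, with dotted lines at a fold of 2. IL1A, IL1B and IL36G lie above 3 on the y axis, IL1R2 lies farthest right at 2.57, and IL33 and IL1R1 lie near the center; the axes share the vehicle library.

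IL1A and IL1B, the genes for the classical IL-1 agonists, were 10.1 and 8.73 times as high in the EZH2i tumor as with vehicle. In CDK2i both were higher than with vehicle, by a fold below 2 as deposited. IL1A was below the expression minimum in vehicle and CDK2i, so it could not pass there whatever its fold. Its CDK2i change was 1.08 after centring, 1.06 with equal summed FPKM and 1.02 with the GC and length trend removed. IL1A stood at 2.24 FPKM in the vehicle tumor, 4.23 under CDK2i and 22.8 under EZH2i. IL1B was at 5.48, 10.1 and 47.8 FPKM. For both genes the 3 counting intervals were separate and stood in the order vehicle, CDK2i, EZH2i. The log2 change in EZH2i was 3.34 for IL1A (interval 3.0 to 3.70) and 3.13 for IL1B (2.87 to 3.39). In CDK2i it was 0.92 (0.51 to 1.32) and 0.88 (0.58 to 1.18), intervals that hold the fold threshold of 1 on the log2 scale. Both genes lie on the minus strand of chromosome 2 in GRCh37, IL1A from 113531502 to 113542070 and IL1B from 113587328 to 113594393. The ratio of IL1B to IL1A within a tumor, which a single scaling factor per library cannot move, was 2.44 with vehicle, 2.39 with CDK2i and 2.10 with EZH2i. The counting intervals of its log2 overlapped, at 0.88 to 1.71, 0.98 to 1.54 and 0.94 to 1.20. Removal of the GC and length trend does move it, with EZH2i changes of 3.13 for IL1A and 3.23 for IL1B. IL1B is also a product of macrophages. The 10 leukocyte markers in the table summed to 12.4 FPKM with vehicle and 6.24 with EZH2i, with 1 and 4 of them listed at 0. CD14 was at 8.02 and 3.15 FPKM, a log2 change of −1.35 (−0.68 with the trend removed), while LYZ was at 0.0389 and 0.224 FPKM. Their part in the IL1B values was not tested.

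IL36G was the agonist gene that passed the thresholds in both treated tumors, from 7.23 FPKM with vehicle to 23.6 with CDK2i and 58.6 with EZH2i. The log2 changes were 1.71 (interval 1.44 to 1.98) and 3.02 (2.77 to 3.28). The study itself reports higher IL-36γ with both inhibitors from this RNAseq, so the rise of IL36G restates its result. IL36B, which encodes IL-36β, stayed far below the expression minimum. It was at 0.301 FPKM with vehicle, from about 6 fragments, and at 1.45 with CDK2i, from about 33. In the EZH2i tumor IL36B was listed at 0, where 3 fragments would have given 0.144 FPKM. The third IL-36 agonist gene, IL36A, also rested on few fragments, about 0, 4 and 18, and stood at 0, 0.235 and 1.16 FPKM.

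IL18 and IL33, the remaining ligand genes, did not share the rise of IL1A, IL1B and IL36G. IL18, the most abundant member in the vehicle tumor at 51.6 FPKM, stood at 25.1 under CDK2i and 57.6 under EZH2i. Its log2 change in CDK2i was −1.04 (interval −1.19 to −0.88), just past the fold threshold. In EZH2i it was 0.16, and −0.06 after centring each library on its median gene. The call in CDK2i is lost when each library is centred on its median gene (−0.87), when the summed FPKM are made equal (−0.89) or when the GC and length trend is removed (−0.88). IL33, whose product is a nuclear alarmin of epithelial and stromal cells, was at 10.8, 9.95 and 8.80 FPKM. Its log2 changes were −0.11 and −0.29, below the fold threshold.

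The antagonist gene IL1RN passed the thresholds in both treated tumors, and IL36RN in neither. IL1RN stood at 17.1 FPKM in the vehicle tumor, 40.6 under CDK2i and 35.8 under EZH2i, log2 changes of 1.25 and 1.06. The interval in EZH2i ran from 0.91 to 1.22, and centring each library on its median gene brought that change to 0.85, below the threshold. IL36RN was at 1.5, 3.11 and 2.92 FPKM, log2 changes of 1.05 and 0.96, with no value above the expression minimum. The difference between the EZH2i and CDK2i tumors was −0.19 for IL1RN and −0.10 for IL36RN.

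Since agonists and antagonists moved by unlike amounts, their proportion within each tumor was compared. With vehicle there was 3.13 times as much IL1RN as IL1B per length, with CDK2i 4.03 times and with EZH2i 0.747 times. Against IL1A the ratio of IL1RN was 7.64, 9.61 and 1.57. IL36RN to IL36G was 0.207, 0.132 and 0.0498. The EZH2i tumor was thus the only one of the 3 with more IL1B than IL1RN, and it had the lowest of the 3 ratios for each of these pairs. These ratios depend on the gene lengths the authors used, but their order between tumors does not.

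The receptor genes differed from each other. IL1R2, the decoy receptor gene, stood at 3.96 FPKM in the vehicle tumor, 23.5 under CDK2i and 11.1 under EZH2i, log2 changes of 2.57 (interval 2.26 to 2.90) and 1.49 (1.16 to 1.84). It was the member with the largest change in CDK2i among those above the expression minimum. IL1R1, the signaling receptor gene, was at 4.51, 3.26 and 5.37 FPKM, log2 changes of −0.47 and 0.25 (−0.14 once the GC and length trend was taken out). It was below the expression minimum in every tumor, so it could not pass. Per length, IL1R2 was at 0.880 times IL1R1 with vehicle, 7.21 times with CDK2i and 2.07 times with EZH2i. The receptor genes are near neighbors on the plus strand of chromosome 2, IL1R2 from 102608422 to 102645006 and IL1R1 from 102681004 to 102796334.

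**Figure D3:**
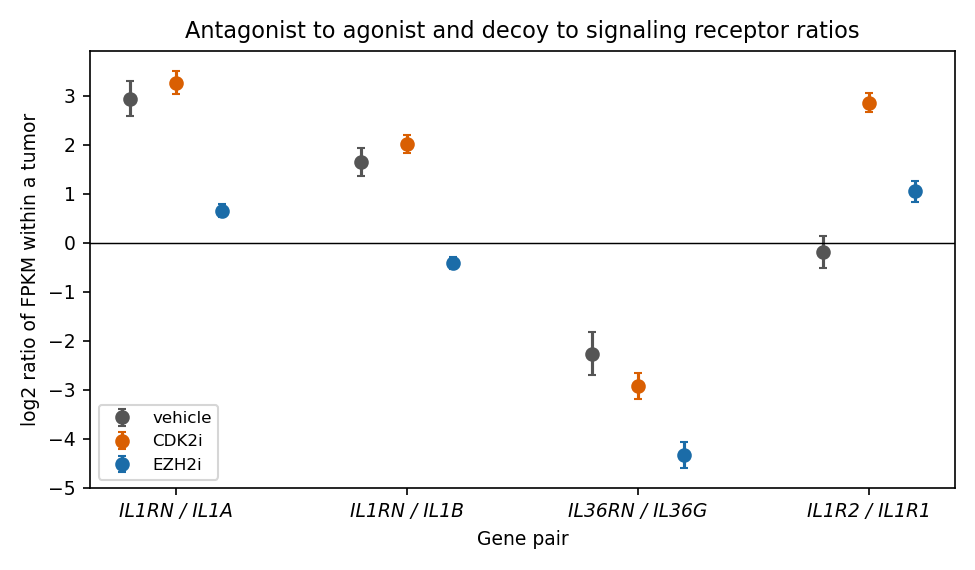
Log2 ratio of FPKM between a pair of genes within each tumor, with bars for the 95% counting interval and 1 library per point. IL1RN over IL1A, IL1RN over IL1B and IL36RN over IL36G are lowest in the EZH2i tumor, and IL1R2 over IL1R1 is highest in the CDK2i tumor.

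Set directly against the CDK2i tumor, the EZH2i tumor had more IL1A (log2 difference 2.43), IL1B (2.25), IL36G (1.31) and IL18 (1.20) and less IL1R2 (−1.08). These were 4 higher and 1 lower of the 7 members above the minimum, against 17.5% higher and 6.53% lower of 7394 genes. The median over the 9 expressed members was 0.72, against 0.35 over all expressed genes. After centring, IL36G was at 0.93 and IL18 at 0.81, below the threshold, while IL1A stayed at 2.04 and IL1B at 1.86. The lower call of IL1R2 is lost with equal summed FPKM, with or without ribosomal protein and mitochondrial genes, and with the trend removed, where its lowest size was −0.90. This comparison is the difference of the changes from vehicle given above and adds no library.

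The EZH2i library differed from vehicle along GC content and length, which bears on these genes. Over 9489 expressed genes, which are not independent replicates, the Spearman correlation of the EZH2i change was −0.58 with GC content and 0.49 with transcript length, against 0.03 and 0.09 for CDK2i. The members' transcripts had a GC content between 34.8% and 50.2% and a median length of 1606 bases, against medians of 49.8% and 3115 bases over expressed genes. With the trend removed, the EZH2i changes were 3.13 for IL1A, 3.23 for IL1B, 3.12 for IL36G, 1.26 for IL1RN and 1.74 for IL1R2, so the same 5 genes passed. IL33, with the lowest GC content of the 10, went from −0.29 to −0.66. As a measure of scatter, the SD of the EZH2i changes over the 200 genes nearest in mean expression lay between 0.58 and 0.80 for the members, and in CDK2i between 0.41 and 0.92. This SD holds drug effects as well as noise.

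Of the 10 genes 8 lie on chromosome 2, in a cluster of ligand genes and a cluster of receptor genes. The ligand cluster runs from IL1A to IL1RN (113531502 to 113891593) and holds 9 genes of the family. In EZH2i, 4 of them passed the thresholds (IL1A, IL1B, IL36G and IL1RN), and in CDK2i IL36G and IL1RN passed. These calls are among those counted above, where 8.93% of all genes were higher in EZH2i and 3.27% in CDK2i. The other 5, IL37, IL36A, IL36B, IL36RN and IL1F10, were below the expression minimum in every tumor. The flanking gene on the IL1RN side, PSD4, was at −0.01 in CDK2i and 0.03 in EZH2i. The flanking gene on the IL1A side, CKAP2L, which encodes a mitotic spindle protein, was at −0.50 and 1.62. It was below the expression minimum in every tumor, so it could not be called.

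The upstream sequence of the 5 genes that passed the thresholds in EZH2i is shown, since these are the members with a call in that tumor. Their changes there ran from 1.06 to 3.34. The windows hold the 250 bases before 1 RefSeq start of each gene (GRCh38.p14), placed on GRCh37 by exact match. By the gene positions used above, IL36G, IL1RN and IL1R2 begin upstream of their windows, at 113730780, 113856892 and 102608422. Other starts of the members were not searched. They were searched on both strands for TGANTCA (the AP-1 motif), GGGA and TTCC with any 2 bases between them (an NF-κB motif) and TATAAA, and matches are in capitals.
IL1A (chr2:113542071-113542320, minus strand): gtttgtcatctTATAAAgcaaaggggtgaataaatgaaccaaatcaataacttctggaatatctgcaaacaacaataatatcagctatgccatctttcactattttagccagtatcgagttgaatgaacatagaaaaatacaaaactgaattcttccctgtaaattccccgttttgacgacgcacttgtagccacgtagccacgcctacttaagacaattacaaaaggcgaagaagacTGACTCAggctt
IL1B (chr2:113594357-113594606, minus strand): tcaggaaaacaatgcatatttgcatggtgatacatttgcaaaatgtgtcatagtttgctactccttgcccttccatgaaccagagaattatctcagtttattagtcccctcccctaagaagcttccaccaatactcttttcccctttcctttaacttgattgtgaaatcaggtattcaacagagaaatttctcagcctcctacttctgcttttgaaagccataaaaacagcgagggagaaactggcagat
IL36G (chr2:113735333-113735582, plus strand): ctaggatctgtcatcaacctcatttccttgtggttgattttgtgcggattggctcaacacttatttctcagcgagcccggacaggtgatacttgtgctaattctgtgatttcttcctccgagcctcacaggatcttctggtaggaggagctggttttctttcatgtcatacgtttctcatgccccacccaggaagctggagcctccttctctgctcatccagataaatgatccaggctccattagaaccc
IL1RN (chr2:113875298-113875547, plus strand): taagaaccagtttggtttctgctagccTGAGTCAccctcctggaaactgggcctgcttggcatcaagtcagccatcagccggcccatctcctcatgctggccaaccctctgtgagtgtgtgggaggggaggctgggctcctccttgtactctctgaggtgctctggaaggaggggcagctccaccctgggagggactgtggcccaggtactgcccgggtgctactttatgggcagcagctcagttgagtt
IL1R2 (chr2:102615173-102615422, plus strand): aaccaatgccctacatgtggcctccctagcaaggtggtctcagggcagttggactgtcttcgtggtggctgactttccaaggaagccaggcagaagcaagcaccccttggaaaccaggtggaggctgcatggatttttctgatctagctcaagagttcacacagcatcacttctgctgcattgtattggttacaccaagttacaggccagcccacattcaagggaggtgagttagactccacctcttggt
IL1A held TGACTCA at bases 12 to 6 before its start and TATAAA at bases 239 to 234, and IL1RN held TGAGTCA at bases 223 to 217. Of the 8 members with a window, 2 held the AP-1 motif, 0 the NF-κB motif and 1 TATAAA, against 6.60%, 1.42% and 11.1% of 27305 promoter windows of this length. IL36B and IL18 had no entry. The 8 windows held 0 to 7 CpG dinucleotides, against a median of 11 over all windows. These letters describe the windows and do not show binding.

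Other genes of the family were mostly at the limit of detection. Of 12 further ligand, receptor and inhibitor genes 11 were in the table, and 3 of them, IL1RAP, IL18BP and SIGIRR, were expressed by the rule above. IL1RAP, the shared signaling chain, stood at 7.38 FPKM in the vehicle tumor, 12.8 under CDK2i and 18.4 under EZH2i, and passed the thresholds in EZH2i with a log2 change of 1.32. That call is lost with the GC and length trend removed (0.80). SIGIRR, an inhibitory receptor of the family, was at 16.1, 21.3 and 8.59 FPKM. It passed as lower in EZH2i against CDK2i, with a log2 difference of −1.31, a call lost with that trend removed (−0.57). IL18BP, a secreted inhibitor of IL-18, was at 1.90, 1.98 and 3.04 FPKM. IL1RL2, the IL-36 receptor gene, was at 0.0228, 0.140 and 0.0218 FPKM, from about 1, 7 and 1 fragments. The human ligand-binding receptor gene for IL-36 was therefore scarcely detected, while IL36G reached 58.6 FPKM in the EZH2i tumor. Reads were mapped to the human genome, so receptor RNA of mouse host cells may be missed. IL1RL1, the IL-33 receptor gene, was at 0.0746, 0.745 and 0.229 FPKM, and IL18R1 at 0.124, 0.136 and 0.355 FPKM. IL1F10 was listed at 0 with vehicle and at 0.421 and 0.167 FPKM, and IL37 was between 0.203 and 0.443 FPKM in the 3 tumors.

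Of 13 genes that act between the IL-1 receptors and NF-κB, 6 were above the expression minimum in the CDK2i comparison and 8 in the EZH2i comparison. Of these 0 passed in CDK2i, against 3.27% higher and 8.07% lower of all genes. In EZH2i 1 was higher, near the 8.93% of all genes. It was MAP3K7, which encodes the kinase TAK1 and was at 5.07, 6.23 and 11.5 FPKM. Its log2 change of 1.18 fell below the threshold after centring, and removal of the GC and length trend left 0.65. Genes below the minimum were not called whatever their change: IRAK2, a receptor-associated kinase gene, was at 0.325, 0.495 and 2.67 FPKM, TAB3 at 1.44, 1.89 and 4.59, and TRAF6 at 2.75, 1.21 and 5.43. IRAK2, TAB3 and TRAF6 were named after their values were seen. The other signaling genes below the minimum in both comparisons with vehicle were lower in the treated tumors. PELI2 was at 0.242, 0.0442 and 0.116 FPKM, and IRAK3 at 0.00688, 0 and 0. Of 17 genes for processing and release of IL-1 family ligands 16 were in the table and 5 above the minimum. Of these 5, 0 passed in CDK2i, beside the same 3.27% and 8.07% of all genes. In EZH2i 1 of 5 was lower, against 4.42% of all genes. It was PYCARD, which encodes the inflammasome adaptor ASC, at 27.7, 17.0 and 8.08 FPKM. Its log2 change of −1.78 was −0.85 with the trend removed. Between EZH2i and CDK2i the lower genes of these lists were IRAK1 (−1.16), PYCARD (−1.07) and CAPN1 (−1.01). They were 1 of 8 signaling and 2 of 5 processing genes above the minimum, against 6.53% of all genes. Each was below the threshold in 2 or more of 4 rescalings.

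Epithelial target genes of IL-1 and IL-36 signaling were more often higher than lower in both treated tumors. Of 18 such genes 14 were above the expression minimum in the CDK2i comparison, of which 7 were higher and 0 lower, against 3.27% and 8.07% of all genes. In EZH2i 15 were above it, of which 10 were higher and 3 lower, against 8.93% and 4.42%. The list was chosen with earlier results of these data known, and the study names CXCL2 and CCL20 among its upregulated genes. These counts therefore describe the list and are no independent test. Target genes below the minimum with vehicle, such as CXCL2 and TNFAIP3, counted only through the treated tumor and could not be called lower. The CDK2i call of CXCL3 (1.02) is lost at 0.87 with equal summed FPKM without ribosomal protein and mitochondrial genes. The 16 expressed ones had median log2 changes of 1.00 and 1.52. Among the genes that passed, the largest changes in CDK2i were those of IL17C (4.01), CCL20 (2.44), MMP9 (2.35) and CXCL2 (1.98). Among those that passed in EZH2i they were those of CSF3 (4.59), the granulocyte growth factor gene, IL8 (3.94), which encodes the neutrophil chemokine CXCL8, CXCL3 (2.69) and TNFAIP3 (2.12). CSF2, which encodes the growth factor GM-CSF, differed more from vehicle but stayed below the expression minimum, at 0.152, 3.60 and 5.91 FPKM. IL8 stood at 14.2 FPKM in the vehicle tumor, 23.3 under CDK2i and 219 under EZH2i, an order shared with IL1A and IL1B. IL17C was at 0.685, 11.1 and 1.59 FPKM, so that it was highest in CDK2i, like IL1R2. The 3 lower genes in EZH2i were S100A7, S100A8 and S100A9, which encode antimicrobial proteins of the epidermis, with changes of −1.35, −1.66 and −1.32. With the trend removed S100A7 was at −0.89 and S100A9 at −0.62, below the threshold. Between EZH2i and CDK2i, 5 of the 16 above the minimum were higher and 5 lower, against 17.5% and 6.53% of all genes. IL8 (3.23), IL17C (−2.80), CSF3 (2.23) and LCN2 (−2.15) were the farthest apart of those that passed. IL6, below the minimum at 0.234, 0.992 and 0.112 FPKM, differed by −3.15. Many of these targets also respond to TNF and other inputs, and whether IL-1 family ligands moved them was not tested.

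**Figure D4:**
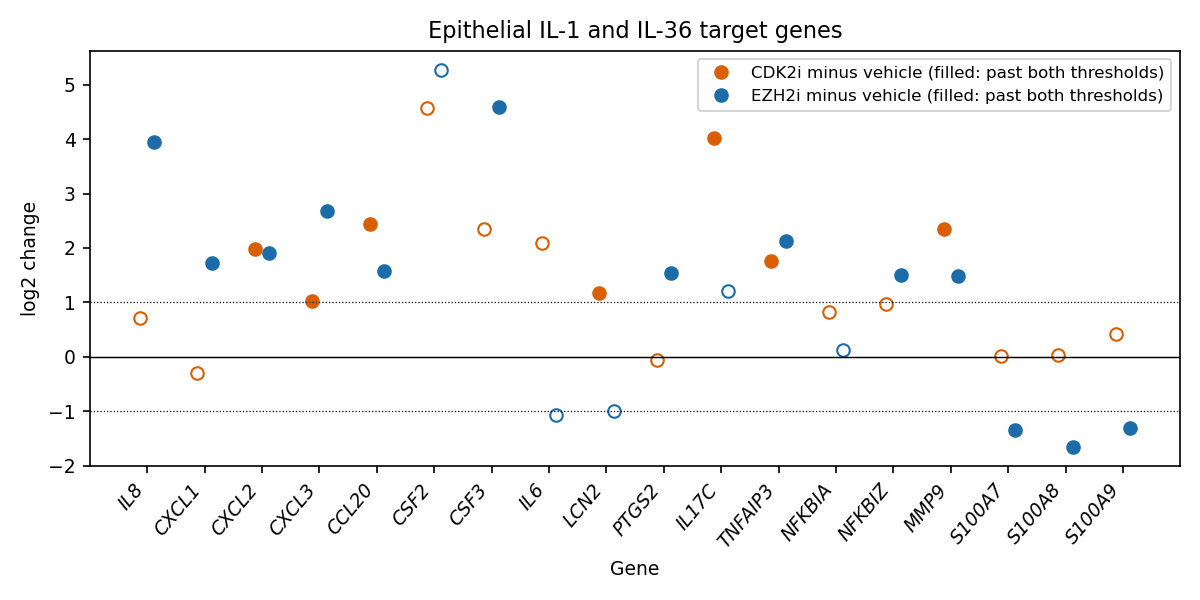
Log2 change from vehicle of 18 epithelial IL-1 and IL-36 target genes in the CDK2i (orange) and EZH2i (blue) tumors, filled where both thresholds were passed. Among the filled points IL8 and CSF3 stand highest in EZH2i and IL17C in CDK2i, and the 3 S100A genes lie below 0 in EZH2i; open points at CSF2 lie below the expression minimum.

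The genes nearest to a member in their pair of changes from vehicle were found over 11108 other expressed genes, which rests on 3 libraries and is a description. For IL36G they were SEMA7A (1.94 in CDK2i and 2.95 in EZH2i), CNTN1 (1.84 and 2.80) and CARD17 (1.64 and 2.77). For IL1R2 they were RHCG (2.49 and 1.56), CCL20 (2.44 and 1.57) and CTD-2622I13.3 (2.66 and 1.64).

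**Figure D5:**
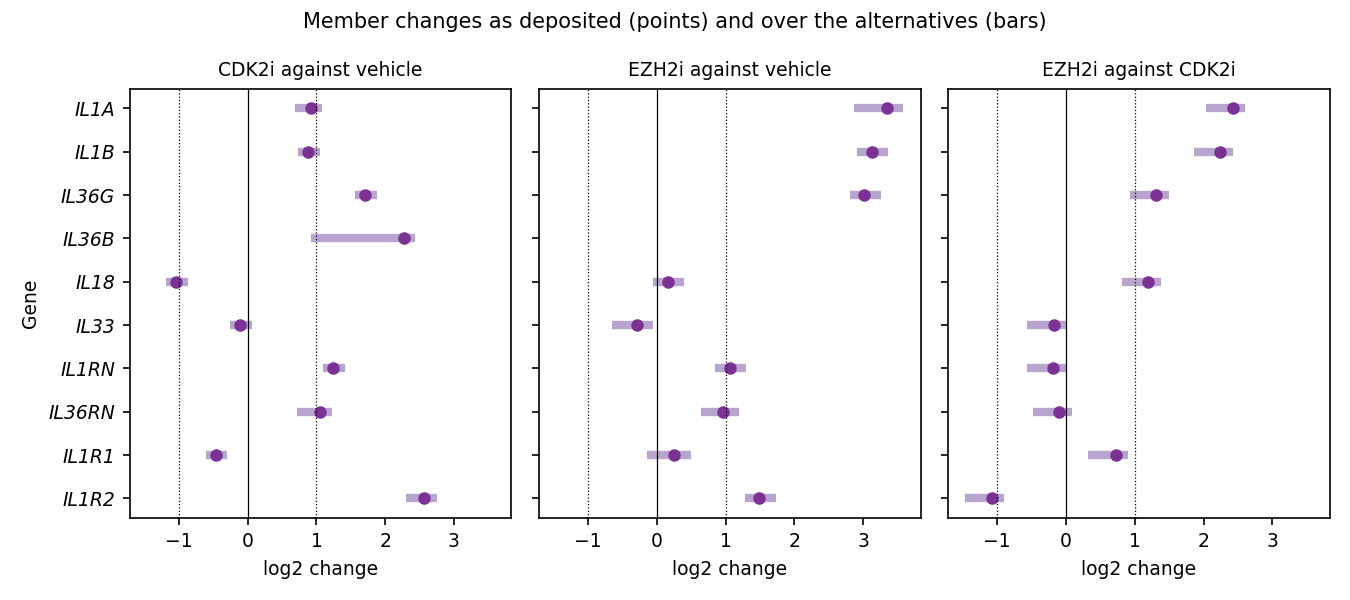
Log2 change of each member as deposited (points) and its range over pseudocounts, 3 rescalings and removal of the GC and length trend (bars), for the 3 comparisons, with dotted lines at a fold of 2. IL1A and IL1B stay above 2.8 in EZH2i against vehicle, while the bars of IL18 in CDK2i and IL1RN in EZH2i cross the dotted line.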

How the data were processed

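RNAseq was performed on 1 xenograft tumor library each of vehicle, CDK2i and EZH2i. The authors mapped reads to the human genome (GRCh37/hg19) and deposited log2 FPKM per gene symbol, 1 column per library. The submitters' processing notes name STAR and CASAVA. The counting tool, its gene lengths and any removal of mouse reads are not given in the sources used here. A value of −9 marks genes without a fragment and was treated as FPKM 0.

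Changes were differences of log2 FPKM with no pseudocount. The limma p-value cutoff of the study was not applied, since 1 library per group gives no error. Depth came from 355 to 411 genes whose low values lay on the step of 1 fragment. Intervals were exact Poisson for a level and exact conditional binomial for a ratio, from fragment numbers rounded to whole ones. These numbers are approximate. GENCODE 44 (GRCh37) gave positions, transcript lengths and GC content, for 86.3% of expressed genes. The trend was a polynomial of degree 3 in each property.

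The 10 genes were fixed by name, and the gene lists by role. Of these lists, genes past the thresholds were named, or the 4 with the largest change where more than 6 passed, and receptors or inhibitors that pair with a member. Neighboring genes were named by position. The members and lists were chosen with earlier results of these data known. Alternatives were other fold and expression thresholds, pseudocounts, 3 rescalings and the trend removal. Calculations were tested on simulated data. Python 3.11.15, numpy 2.4.6, pandas 2.3.3 and scipy 1.17.1 were used.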

Additional observations from a re-analysis of the deposited data

How the results depend on the processing

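No paired analysis was possible because each group holds 1 library, and no library could be left out. Of 168 member changes recomputed under an alternative, 135 stayed within the counting interval of the deposited value, 33 left it and 0 changed the sign of a call. The thresholds moved the counts most. Below, the share of all genes called in the same direction at the same setting is in parentheses. With a fold threshold of 3, the CDK2i tumor had 0 lower members (2.41%) and the EZH2i tumor 3 higher (1.43%). EZH2i against CDK2i then had 2 higher (5.83%) and 0 lower (2.27%). With no expression minimum, CDK2i had 5 higher members, EZH2i 1 lower, and EZH2i against CDK2i 2 lower, with IL36B and IL36RN entering. With a minimum of log2 FPKM 5, CDK2i had 1 higher (4.59%) and EZH2i 3 higher (4.16%). EZH2i against CDK2i had 0 lower (10.6%). After centring on the median gene, CDK2i had 0 lower members (5.39%) and EZH2i against CDK2i 2 higher (7.23%). With equal summed FPKM, 0 members were lower in CDK2i (5.64%) and 0 in EZH2i against CDK2i (5.4%). With the GC and length trend removed, 0 were again lower in CDK2i (5.38%) and 0 in EZH2i against CDK2i (3.11%). Equal sums without ribosomal protein and mitochondrial genes gave 0 lower in EZH2i against CDK2i (4.6%). The median of EZH2i against CDK2i was 0.34 after centring, against −0.03 over all expressed genes. With the trend removed it was 0.32, against 0.31, and over ligands and antagonists only it was 1.20. The medians against vehicle ran from 0.72 to 1.08 in CDK2i and from 0.85 to 1.30 in EZH2i. Those over all expressed genes ran from −0.26 to 0.06 and from −0.02 to 0.43. Depth limited IL36B, IL36A, IL1F10, IL37 and IL1RL2, whose values rest on few fragments.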
